A study of Mus musculus with 16 samples.

Results

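The effect of a lowered DREAM dose in R6/2 striatum was measured on 8 of the 16 arrays of the study, 4 from R6/2 x DREAM+/- mice and 4 from R6/2 mice, chosen by the genotype in the sample titles. R6/2 mice model Huntington's disease: they express a transgene made of the opening exon of human huntingtin with a long CAG repeat, driven by human huntingtin promoter sequence. Both groups carry this transgene, and they differ in the DREAM genotype: R6/2 x DREAM+/- mice came from crossing the R6/2 line with mice in which the DREAM gene was knocked out. The other 8 arrays, 4 wild-type and 4 DREAM+/-, ask the same question without the transgene. The strain of every group is given as B6xCBA. RNA was taken from whole striatum, although the labels name striatal neurons as the cell type, and markers of astrocytes, oligodendrocytes, microglia and blood vessels were all measured in it. The sources used here give no age or sex, no deleted part of the gene and no statement on whether RNA of several animals was pooled. The replicates are described as biological, so p-values measure the spread between these samples.

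DREAM (downstream regulatory element antagonist modulator), also named calsenilin and KChIP3, is encoded by Kcnip3. It is a calcium sensor of the neuronal calcium sensor family. Without calcium it binds a short DNA element downstream of the start of transcription and represses genes such as Pdyn, and calcium binding releases it from the DNA. Outside the nucleus it is a subunit of Kv4 potassium channels and binds presenilins, and it has been described as a partner of the endoplasmic reticulum stress sensor ATF6. In striatum most neurons are medium spiny neurons, whose identity genes fall in Huntington's disease and its mouse models.

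Levels were read on Affymetrix Mouse Genome 430 2.0 arrays, 1 per sample, and are given as deposited on the log2 scale, where a difference of 1 is a 2-fold change. Of 18193 genes measured, 13011 were bright enough to be tested. R6/2 replicate 1 stood apart in Xist, a transcript of the inactive X chromosome, at 6.49 against 11.04 to 12.16 in the other 15 arrays, and the Y-linked Eif2s3y read 8.91 in it and 6.16 to 8.05 in the others. On the third principal component, R6/2 x DREAM+/- replicate 3 lay at -15.9 and the other arrays between -4.87 and 10.6. Counts without them are given beside some of the results they change.

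Kcnip3 itself was lower in all R6/2 x DREAM+/- arrays. Its brighter probe set read 9.12, 9.06, 9.04 and 9.23 in the 4 R6/2 arrays and 7.67, 7.43, 7.65 and 7.49 in the 4 R6/2 x DREAM+/- arrays (log2). The groups did not overlap, and the difference of -1.55 (SE 0.09, 95% interval -1.75 to -1.35, limma adjusted p = 8.64e-08) left 34.1% of the R6/2 level. The dimmer probe set read 7.89, 7.93, 8.06 and 8.10 in R6/2 and 5.24, 5.51, 5.57 and 5.29 in R6/2 x DREAM+/-, where it lay under the brightness filter of 5.944. Its difference was -2.59 (95% interval -2.85 to -2.34, adjusted p = 2.63e-09), which left 16.6% of the R6/2 level. Without the transgene the brighter probe set read 9.41, 9.89, 9.51 and 9.86 in wild type and 7.82, 7.77, 7.72 and 7.78 in DREAM+/-. In DREAM+/- the brighter probe set kept 26.9% of the wild-type level and the dimmer 13.0%. A probe set outside the deleted part would not check the genotype.

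**Figure D1:**
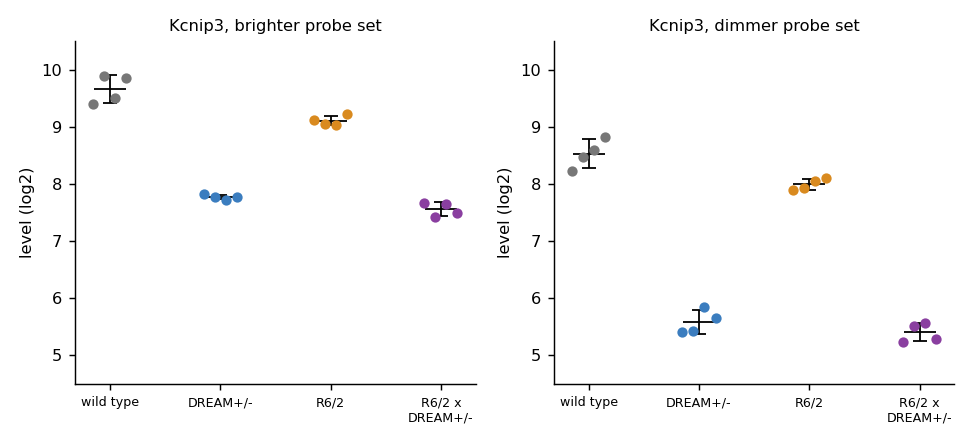
Level of Kcnip3 (log2) on its brighter (left) and dimmer (right) probe set, 1 point per array, in the 4 genotypes; the black bar is the mean and the whiskers are 1 SD (n = 4). On the brighter probe set the R6/2 x DREAM+/- arrays lie between 7.43 and 7.67 and the R6/2 arrays between 9.04 and 9.23.

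Over all genes, a lower DREAM dose in R6/2 striatum came with many small differences and few large ones. Of 13011 genes tested, 1819 passed at a limma adjusted p under 0.05 (14%), 693 higher (5.33%) and 1126 lower (8.65%) in R6/2 x DREAM+/-. Of these, 1421 (10.9% of all genes) also had no overlap between the groups of 4. The median size among genes that passed was 0.27 on the log2 scale, 89.3% were under 0.5, and 33 changed at least 2-fold, 22 higher and 11 lower. The median over all genes was -0.03. Without R6/2 x DREAM+/- replicate 3 the count rose to 2708, of which 1991 were lower. Leaving out R6/2 replicate 1 gave 1312, 471 higher and 841 lower. Leaving out R6/2 replicate 4 gave 1067, and leaving out both arrays that stood apart gave 2293.

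The largest increases were in genes of different functions. Kcne2, a potassium channel subunit abundant in choroid plexus, read 5.30, 5.95, 6.12 and 5.35 in R6/2 and 9.13, 7.68, 7.98 and 8.65 in R6/2 x DREAM+/-, a difference of 2.68 (SE 0.45, adjusted p = 0.00146). The R6/2 means of Kcne2 (5.68), Mid1 (5.86) and Trim34a (5.74) were dimmer than the filter value, 5.944, so these genes were tested through the groups where they are high and their differences are measured from a dim level. Mid1, an X-linked ubiquitin ligase that binds microtubules, read 5.87, 5.73, 5.70 and 6.13 against 7.90, 8.24, 8.23 and 7.66, a difference of 2.15 (SE 0.17, adjusted p = 6.31e-07) carried by 1 of its 3 probe sets. Acer3, an alkaline ceramidase, read 6.36, 6.92, 6.47 and 6.90 against 8.32, 8.33, 8.25 and 8.18 (1.61, SE 0.13, adjusted p = 6.31e-07). The groups were separate for each of these genes, and Acer3 had the same direction on all 4 of its probe sets. Tmem267 was higher by 2.35, Pttg1 (securin, an inhibitor of the enzyme that parts sister chromatids) by 2.02, Sbno1 by 1.38, and the interferon-inducible Trim34a and Trim30a by 1.27 and 1.15, each on 1 of 2 probe sets, with the other at -0.06 and -0.05. Prss23, a serine protease, was higher by 1.09. Srrm2, a splicing factor, was higher by 1.21 on its brightest probe set and lower by 0.45 on another (adjusted p = 0.00581 over all probe sets), and its call was lost without R6/2 replicate 4 (1.08, adjusted p = 0.0570). Pttg1 read 9.10 to 11.34 in R6/2 and 11.98 to 12.35 in R6/2 x DREAM+/-.

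The largest decreases were in Rbm45, an RNA-binding protein, and Cap1, which binds actin. Rbm45 read 9.19, 9.91, 9.73 and 9.09 in R6/2 and 6.69, 6.69, 6.55 and 7.17 in R6/2 x DREAM+/- (difference -2.71, SE 0.20, adjusted p = 3e-07), with wide separation of the groups. Cap1 read 11.08, 11.09, 11.32 and 11 against 9.61, 9.33, 6.89 and 8.70 (-2.49, SE 0.46, adjusted p = 0.00291); replicate 3 was the lowest array, and without it the difference was -1.91. Tmem87a, a Golgi membrane protein, read 8.87, 8.69, 8.43 and 9.06 against 6.80, 6.69, 7.01 and 6.83 (-1.93, SE 0.11, adjusted p = 1.28e-08). After Kcnip3 came Abhd1 (-1.31), Hddc3 (-1.20), the lipid kinase Pi4kb (-1.16), Folh1, a carboxypeptidase that cleaves N-acetylaspartylglutamate (-1.16, to a mean of 5.83 that is under the brightness filter), the junction scaffold Magi1 (-1.06, all 5 probe sets), the phospholipase Pla2g4e (-1.04) and the integrin subunit Itgb4 (-0.82). Gas7 read 10.61, 10.62, 10.75 and 10.70 in R6/2 but 10.38, 8.59, 8.96 and 10.37 in R6/2 x DREAM+/-, so its difference of -1.09 rests on replicates 2 and 3. The Gas7 call was lost without either of these arrays (-0.77 and -0.89) or without any 1 of the 4 R6/2 arrays (adjusted p up to 0.0959). Of the 5 Gas7 probe sets, 2 had the sign of this difference.

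The same comparison without the transgene, DREAM+/- against wild type, takes its differences from the other 8 arrays, while the spread behind its test is pooled over all 16. It gave 479 genes (3.68%), 208 higher and 271 lower. Of these, 328 passed in both comparisons with the same sign, 155 higher and 173 lower, which is 18% of the genes that passed with R6/2 and 68.5% of those that passed without. Without R6/2 x DREAM+/- replicate 3, 703 genes passed without the transgene and 466 in both. Etv3, an ETS-family repressor, was the only gene that passed in both with opposite signs, higher by 0.23 with R6/2 (adjusted p = 0.0247) and at -0.24 without (adjusted p = 0.0385). Its first call was lost on leaving out R6/2 x DREAM+/- replicate 1 or 2 or R6/2 replicate 3 or 4 (adjusted p up to 0.0852). Across 13011 genes the log2 changes of the 2 comparisons correlated at r = 0.705, where genes are not independent and arrays of 1 genotype are shared by all genes. Of the 15 highest and 15 lowest genes, all 30 had the same sign without R6/2 and 26 passed there.

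The largest changes can be set beside their values without R6/2. Rbm45 changed by -2.35 without the transgene, Tmem87a by -2.25, Cap1 by -2.06, Abhd1 by -1.19 and Acer3 by 1.35. Kcne2 changed there by 1.86, Tmem267 by 1.505, Pttg1 by 1.38 and Gas7 by -0.21. Mid1 differed more, 2.15 with R6/2 and 0.64 without. It read 7.30, 7.07, 7.42 and 7.69 in wild type and 7.55, 7.98, 8.11 and 8.39 in DREAM+/-, so that R6/2 was the lowest group. The difference between the DREAM effects with and without R6/2 was tested as an interaction, and limma called 0 of 13011 genes (0%), with 898 at an unadjusted p under 0.05 and a smallest adjusted p of 0.0578, which belonged to Mid1 (1.51, SE 0.24). Nr4a2 followed it (0.93, adjusted p = 0.0587). A 60th percentile brightness filter called 3 genes and quantile normalization called 1.

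**Figure D2:**
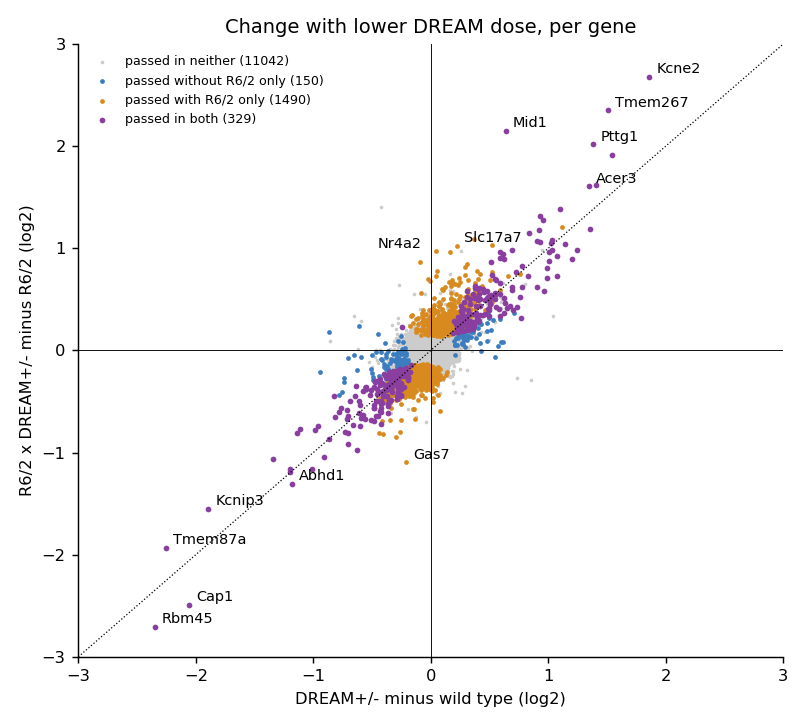
Log2 change with a lower DREAM dose without R6/2 (x axis, DREAM+/- minus wild type) and with R6/2 (y axis, R6/2 x DREAM+/- minus R6/2), 1 point per gene; colours mark where a gene passed, counts are in the legend and the dotted line marks equal changes. Abhd1 and Acer3 lie near the line. Mid1, Nr4a2, Slc17a7, Kcne2, Tmem267 and Pttg1 lie above it, and Gas7 lies below it.

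Genes next to Kcnip3 were counted because a knocked-out allele is inherited together with the chromosome around it. Of the 100 tested genes nearest to Kcnip3 in order on chromosome 2, 50 on each side, 18 passed (18%, against 14% of all genes). Of these, 6 were higher and 12 lower, and 5 passed in both DREAM comparisons (5%, against 2.52% of all genes). They included Zscan29 (-0.80 with R6/2, -0.70 without), Stk35 (0.54 and 0.55) and Gatm (0.36 and 0.34), which were chosen after their values were seen. Pdyn, the prodynorphin gene described below, lies 19 tested genes from Kcnip3. Tmem87a and Rbm45, also on chromosome 2, lie outside these 100 genes. By chromosome the highest share was on chromosome 7, where 174 of 997 genes passed (17.5%, beside 14% of all genes). It held 9 of the 33 genes that changed at least 2-fold. Chromosomes 17 and 3 followed at 16.2% and 16.1%. A run of 100 tested genes on chromosome 7, from Tm6sf1 to Art5, held 34 that passed and 19 that passed in both comparisons. This run was chosen after the values were seen. Acer3, Prss23, Folh1, Hddc3, Trim34a and Trim30a are all on chromosome 7. The part that inherited strain differences play in these values was not tested.

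**Figure D3:**
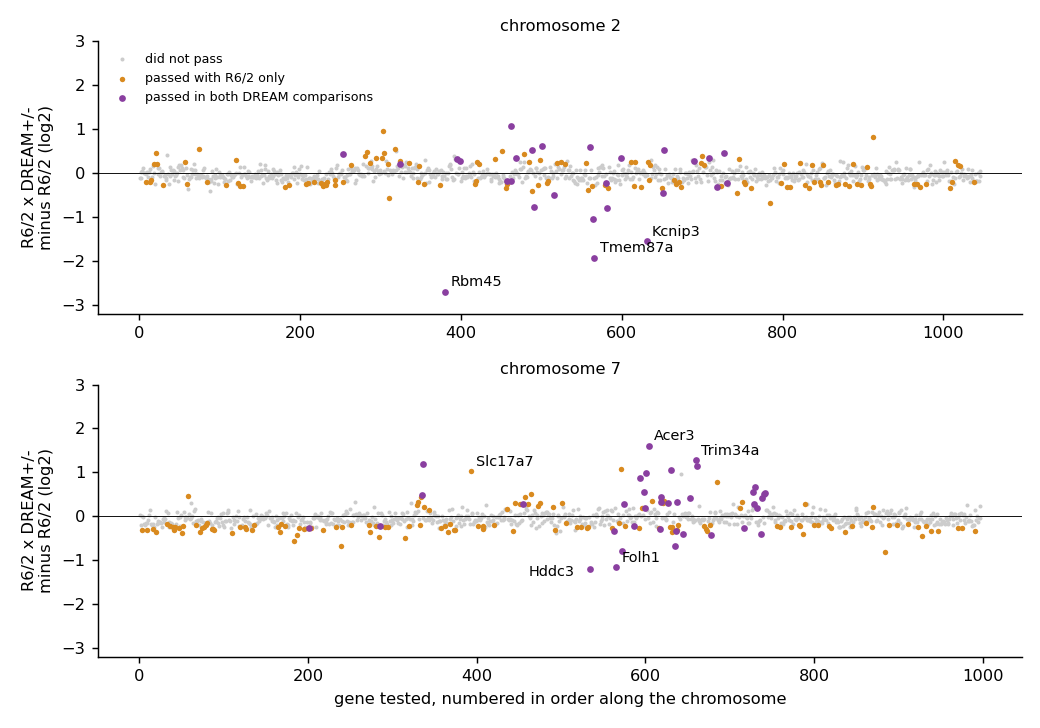
Log2 change of each tested gene (R6/2 x DREAM+/- minus R6/2) in its order along chromosome 2 (top) and chromosome 7 (bottom), 1 point per gene. Genes that passed in both DREAM comparisons (purple) include Rbm45, Tmem87a and Kcnip3 on chromosome 2 and a group around Acer3 on chromosome 7.

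Among the proteins that DREAM works with, the Kv4 channel complex was counted first. Of 11 tested genes 4 were lower and 0 higher, 1 of the 4 being Kcnip3, whose knockout defines the groups. Of the other 10, 3 were lower (30%, beside 8.65% over all genes), and their median was -0.12, beside -0.03. Dpp6, an auxiliary subunit that speeds Kv4 gating, read 10.40, 10.32, 10.40 and 10.36 in R6/2 and 10.03, 9.91, 10.08 and 10.01 in R6/2 x DREAM+/-. The groups were separate and the difference was -0.36 (SE 0.05, adjusted p = 0.000158), with -0.23 without R6/2 (adjusted p = 0.00999). The others that fell were Kcnip1 (-0.33) and Kcnip4 (-0.20), both of the same subunit family as Kcnip3. The Kcnip1 call was lost without R6/2 x DREAM+/- replicate 2 or R6/2 replicate 4 and the Kcnip4 call without R6/2 x DREAM+/- replicate 4 or R6/2 replicate 1 or 4 (adjusted p up to 0.0653 and 0.0813). The pore subunits Kcnd2 (0.12, adjusted p = 0.172) and Kcnd3 (0.15, adjusted p = 0.163) did not pass. Of 8 other neuronal calcium sensors, Hpcal1 fell by 0.27 and 7 did not pass. Of 9 presenilin and gamma-secretase genes none passed, with Psen2 at -0.10 (adjusted p = 0.293). Without R6/2 x DREAM+/- replicate 3, 3 neuronal calcium sensors and 1 presenilin or gamma-secretase gene were lower. Without R6/2 x DREAM+/- replicate 2, 1 presenilin or gamma-secretase gene was higher.

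Genes reported as DREAM targets were not raised as a group. Of 15 tested, 0 were higher, 2 were lower (13.3%, beside 8.65% over all genes) and 13 did not pass, with a median of 0.07. Npas4, a transcription factor induced by neuronal activity, read 7.65, 7.64, 7.09 and 7.54 in R6/2 and 6.68, 6.85, 6.77 and 7.02 in R6/2 x DREAM+/-. The groups did not overlap, and the difference was -0.65 (SE 0.15, adjusted p = 0.0115), beside -0.82 without R6/2. Pdyn, which encodes the dynorphin precursor, read 7.88, 7.63, 7.85 and 7.96 against 7.18, 7.54, 7.68 and 7.56, and the groups overlapped by 1 array. Its difference was -0.34 (SE 0.10, adjusted p = 0.0344), with -0.33 without R6/2, and the call was lost without any 1 of R6/2 x DREAM+/- replicates 1, 2 and 4 and R6/2 replicates 1, 3 and 4 (adjusted p up to 0.101). Bdnf (0.07, adjusted p = 0.497), Fos (0.09, adjusted p = 0.844), Egr1 (0.16, adjusted p = 0.244) and the sodium-calcium exchanger Slc8a3 (0.04, adjusted p = 0.718) did not pass. Against wild type, 11 of the 15 were lower in R6/2 and 0 higher. In that comparison 3307 of 13011 genes passed in either direction.

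Immediate early genes, which neurons switch on within minutes of activity, included both directions. Of 26 tested, 4 were higher, 1 was lower (Npas4) and 21 did not pass (19.2% passed, beside 14% over all genes, median 0.02), and without R6/2 replicate 4 there were 2 higher. Nr4a2, a nuclear receptor, read 8.05, 8.36, 8.52 and 8.61 in R6/2 and 9.30, 9.24, 9.43 and 9.45 in R6/2 x DREAM+/-. The lowest R6/2 x DREAM+/- array was above the highest R6/2 array, and the difference was 0.97 (SE 0.11, adjusted p = 3.47e-05). In wild type it read 9.62, 9.72, 9.66 and 9.51 and in DREAM+/- 9.55, 9.90, 9.78 and 9.44, a difference of 0.04. Klf10 rose by 0.37, Dusp6, a phosphatase that switches off ERK, by 0.35, and the postsynaptic scaffold Homer1 by 0.16. Dusp6 lies outside the rule for named genes and was added after its values were seen; its call was lost without R6/2 x DREAM+/- replicate 2 or R6/2 replicate 1, 3 or 4 (adjusted p up to 0.0902). The Homer1 call was lost without R6/2 x DREAM+/- replicate 4 or R6/2 replicate 2 or 4 (adjusted p up to 0.0613). Egr2 (0.18) did not pass. Without R6/2, 9 of the 26 were lower and 0 higher, with a median of -0.39. Over all genes, 271 of 13011 were lower in that comparison.

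The promoters of the 3 genes on which these lists turn are shown because DREAM is known for binding the core letters GTCA. The sequences are the 250 bases before the start of transcription from RefSeq (GRCm38.p6), Npas4 at chr19:4989972-4990221, Pdyn at chr2:129699939-129700188 and Nr4a2 at chr2:57124004-57124253, all on the minus strand. Capitals mark GTCA on either strand, so that TGAC is its reverse complement. The printed bases lie before the start, whereas the element described above for DREAM lies downstream of it.
Npas4: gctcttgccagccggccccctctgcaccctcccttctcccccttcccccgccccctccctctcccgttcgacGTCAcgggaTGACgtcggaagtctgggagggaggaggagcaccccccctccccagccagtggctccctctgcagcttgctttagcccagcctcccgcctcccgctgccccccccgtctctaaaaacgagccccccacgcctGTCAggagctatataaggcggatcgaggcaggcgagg
Pdyn: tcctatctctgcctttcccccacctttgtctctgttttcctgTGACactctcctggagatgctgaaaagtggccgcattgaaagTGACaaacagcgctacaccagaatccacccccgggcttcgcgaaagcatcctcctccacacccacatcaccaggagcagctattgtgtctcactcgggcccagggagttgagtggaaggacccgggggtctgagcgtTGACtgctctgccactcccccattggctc
Nr4a2: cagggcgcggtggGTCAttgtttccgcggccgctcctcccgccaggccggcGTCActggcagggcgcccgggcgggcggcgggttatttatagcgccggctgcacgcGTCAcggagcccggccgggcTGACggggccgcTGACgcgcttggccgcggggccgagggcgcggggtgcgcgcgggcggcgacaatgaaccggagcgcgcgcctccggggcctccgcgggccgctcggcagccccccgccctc
Npas4 held 3 copies, Pdyn 3 and Nr4a2 5 in this window. At least 3 copies of GTCA, on either strand and over the 300-base window that also takes in the first 50 bases after the start, were found in 34.7% of all promoters in the table and in 28.2% of the 10482 tested genes with a promoter there. The shares were 27.0% among genes that were higher and 28.0% among genes that were lower. They were 58.3% of 12 reported targets and 50% of 20 immediate early genes with a promoter in the table. These lists share members, among them Fos, Junb, Nr4a1 and Npas4. The cyclic AMP response element TGACGTCA, which contains GTCA, was in 3.13% of tested genes, 3.33% of those higher and 3.12% of those lower.

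The unfolded protein response, in which the endoplasmic reticulum answers misfolded protein through the sensors ATF6, IRE1 and PERK, was read as RNA levels. The activity of the sensor proteins was not measured. Of 12 sensors and transcription factors 0 passed, beside 14% over all genes, and 1 was lower without R6/2 x DREAM+/- replicate 3. Atf6 read 8.59, 8.83, 8.81 and 8.59 in R6/2 and 8.74, 8.89, 9.15 and 8.62 in R6/2 x DREAM+/-, with overlap between the groups. Its difference was 0.14 (95% interval -0.06 to 0.35, adjusted p = 0.337). Xbp1 (0.11, adjusted p = 0.286) and Ddit3 (-0.02) did not pass either. Of 15 chaperones and folding enzymes, 1 passed (6.67%). Hspa5 (BiP, the main chaperone of the endoplasmic reticulum) read 12.02, 12.09, 11.98 and 11.80 against 12.24, 12.06, 12.10 and 12.24, a difference of 0.19 (95% interval 0.03 to 0.34, adjusted p = 0.0959), and 1 pair of arrays overlapped. The member that rose was Pdia6, a disulfide isomerase (0.18, adjusted p = 0.0395), with this sign on 1 of its 2 probe sets. The Pdia6 call was lost on leaving out any 1 of 5 arrays, R6/2 x DREAM+/- replicates 2 and 4 and R6/2 replicates 1, 3 and 4 (adjusted p up to 0.114). Edem2, which marks misfolded glycoproteins, fell by 0.34 (adjusted p = 0.0131), with this sign on 1 of its 2 probe sets. The other 9 of 10 genes of endoplasmic reticulum-associated degradation did not pass (10% passed). These counts were not tested against the share over all genes.

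Promoters of Hspa5 (chr2:34771840-34772089, plus strand) and Pdia6 (chr12:17266339-17266588, plus strand) are shown for the endoplasmic reticulum stress element, at which ATF6 acts. They are the 250 bases before the start of transcription (RefSeq, GRCm38.p6), with the element, CCAAT followed by 9 bases of any kind and then CCACG, in capitals.
Hspa5: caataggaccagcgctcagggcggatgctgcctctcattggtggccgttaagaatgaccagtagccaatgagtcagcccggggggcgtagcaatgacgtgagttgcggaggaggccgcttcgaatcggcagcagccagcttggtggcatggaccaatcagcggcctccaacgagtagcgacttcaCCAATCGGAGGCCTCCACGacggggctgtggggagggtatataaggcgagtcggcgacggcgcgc
Pdia6: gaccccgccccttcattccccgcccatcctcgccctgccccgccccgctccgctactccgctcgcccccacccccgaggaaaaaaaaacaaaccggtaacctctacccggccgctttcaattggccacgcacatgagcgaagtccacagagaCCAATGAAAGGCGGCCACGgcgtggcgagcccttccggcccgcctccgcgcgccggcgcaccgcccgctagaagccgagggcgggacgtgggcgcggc
The element, on either strand, was in 53.8% of 13 chaperone promoters and in 0.143% of tested genes. It was in 0.185% of genes that were higher and 0.107% of genes that were lower.

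**Figure D4:**
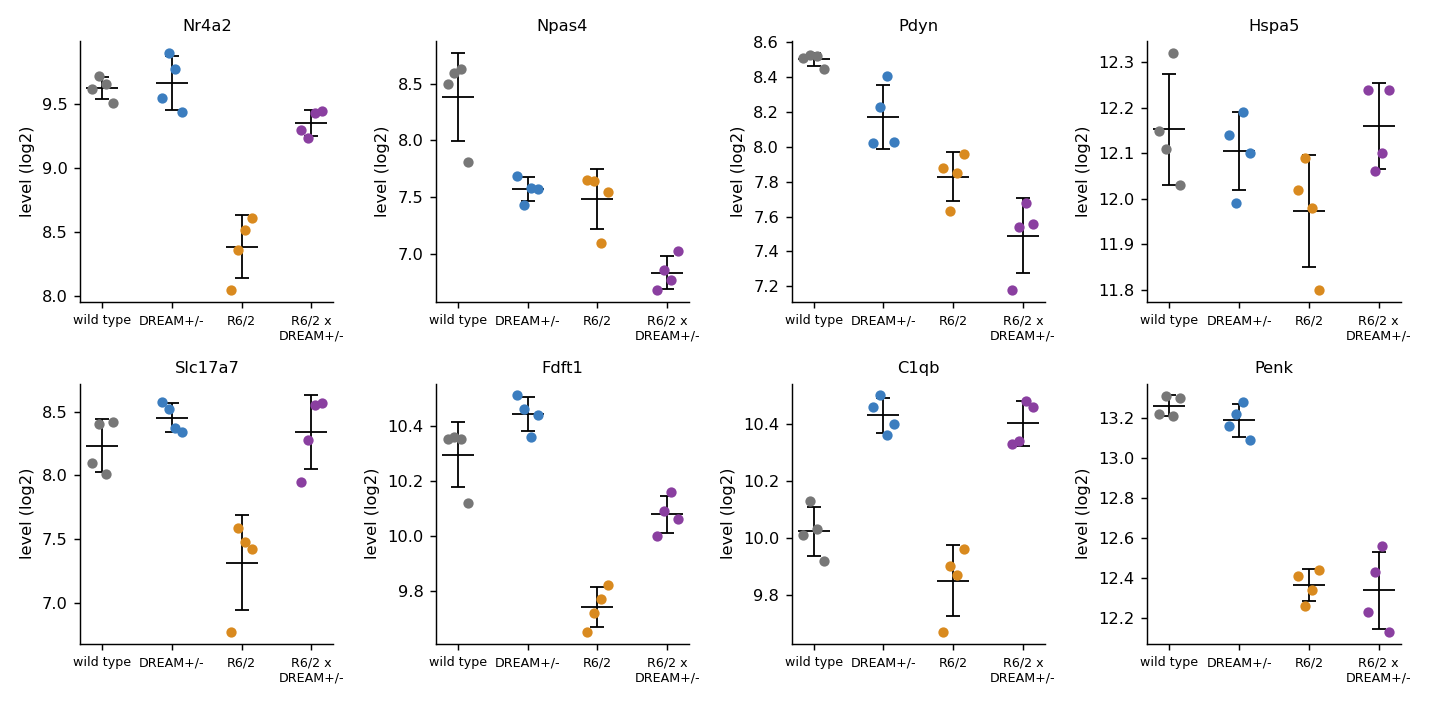
Level (log2) of 8 genes in the 4 genotypes, 1 point per array, with the mean as a bar and 1 SD as whiskers (n = 4). Nr4a2, Slc17a7, Fdft1 and C1qb are higher in R6/2 x DREAM+/- than in R6/2, Npas4 and Pdyn are lower, and the groups overlap for Hspa5 and Penk.

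Most identity genes of medium spiny neurons did not pass. Of 35 tested, 3 were higher, 4 were lower and 28 did not pass (20% passed, beside 14% over all genes, median -0.01). In R6/2 against wild type, 32 of the 35 were lower (median -0.76), where 3307 of 13011 genes passed in either direction. In bulk tissue, fewer cells of a type and less RNA per cell cannot be told apart. Penk, the enkephalin precursor of indirect pathway neurons, read 12.41, 12.26, 12.34 and 12.44 in R6/2 and 12.23, 12.43, 12.56 and 12.13 in R6/2 x DREAM+/-. The ranges overlapped, and the difference was -0.02 (95% interval -0.19 to 0.14, adjusted p = 0.859). Rgs4, a brake on G protein signalling, rose by 0.35 (adjusted p = 0.00833). Bcl11b, a transcription factor of these neurons (0.23), and Strn (0.28) also rose, while Ppp1r1b, which encodes DARPP-32 (-0.30), Pdyn, the phosphatase Ptpn5 (-0.34) and Foxp2 (-0.24) fell. Foxp2 read 0.025 with the mean of its probe sets in place of the brightest. Bcl11b, Strn and Ptpn5 were added after their values were seen. Of these 7 genes only Rgs4 passed without each of the 8 arrays in turn. Leaving out 1 array gave 1 to 5 higher and 0 to 10 lower, with 10 lower without R6/2 x DREAM+/- replicate 3 and 0 without R6/2 x DREAM+/- replicate 4 or R6/2 replicate 1 or 4. Isl1, a factor of direct pathway neurons, fell by 0.34 (adjusted p = 0.00239). With Pdyn, 2 of 8 direct pathway genes were lower (25%, beside 8.65% over all genes) and 0 higher. Leaving out 1 array gave 1 to 3 lower and 0 to 1 higher. Of 5 indirect pathway genes 0 passed, and 1 was lower without R6/2 x DREAM+/- replicate 3. Receptor genes did not pass, with Drd1 at 0.22 (adjusted p = 0.0887), Drd2 at -0.19 (adjusted p = 0.469) and Cnr1 at 0.21 (adjusted p = 0.0911). Drd2 read 10.51 in R6/2 x DREAM+/- replicate 3 and 9.47 to 9.73 in the other 3, and passed at -0.42 without replicate 3. Drd1 passed without R6/2 x DREAM+/- replicate 1 (0.32) and Cnr1 without R6/2 x DREAM+/- replicate 4 (0.29). Pde10a (0.08) and Tac1 (-0.02) did not pass.

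Genes of calcium entry, synapses and growth factor signalling are read against the 14% of all genes that passed. Of 32 calcium handling genes, 3 were higher and 0 lower (9.38%), among them Camk4, a nuclear calcium-dependent kinase, and Ryr2, a calcium release channel. Camk4 read 10.71, 10.71, 10.41 and 10.75 in R6/2 and 11.21, 11.31, 11.54 and 10.93 in R6/2 x DREAM+/-, a difference of 0.60 (SE 0.12, adjusted p = 0.00455) on 2 of its 5 probe sets. Ryr2 rose by 0.32. Without R6/2 x DREAM+/- replicate 3, 2 calcium handling genes were lower, and without R6/2 x DREAM+/- replicate 1, 5 were higher. Of 18 glutamate receptor and postsynaptic genes, 3 rose (16.7%), Grm3 (0.58), Gria3 (0.24) and Homer1. Of 12 GABA system genes 3 passed (25%): the receptor subunits Gabra2 (0.53) and Gabrb2 (0.32) rose and the vesicular transporter Slc32a1 fell by 0.24. With the mean of all probe sets of a gene, Gabrb2 read 0.12 (adjusted p = 0.396) and Slc32a1 -0.07 (adjusted p = 0.394), and Camk4 0.14 (adjusted p = 0.218). Gfra2, the neurturin receptor, read 7.03, 7.33, 7.53 and 7.10 in R6/2 and 7.73, 7.66, 8.35 and 7.97 in R6/2 x DREAM+/- (0.68, SE 0.14, adjusted p = 0.00658). In 10 neurotrophin system genes (20% passed) it was the only rise, and Ngfr was the only fall (-0.26). The Ngfr call was lost on leaving out any 1 of 5 arrays, R6/2 x DREAM+/- replicates 1, 2 and 4 and R6/2 replicates 1 and 4 (adjusted p up to 0.0903). Of 18 other potassium and sodium channel genes, 2 rose and 2 fell (22.2%). Leaving out 1 array gave 0 to 2 higher and 0 to 2 lower: the higher count moved by over 1.5 times without any array other than R6/2 x DREAM+/- replicate 4 and R6/2 replicate 3, and the lower count without any other than R6/2 x DREAM+/- replicate 3.

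Of 18 cholesterol synthesis genes, 8 were higher and 1 lower, beside 5.33% higher and 8.65% lower over all genes, and the median was 0.04. Fdft1, squalene synthase, read 9.65, 9.72, 9.77 and 9.82 in R6/2 and 10, 10.09, 10.16 and 10.06 in R6/2 x DREAM+/-. The groups were separate and the difference was 0.34 (SE 0.06, adjusted p = 0.00241), although only 2 of 4 probe sets had this sign. Idi1 rose by 0.25, Cyp51 by 0.33, Hmgcs1 by 0.21 and Insig1, which holds back the pathway's activator, by 0.27. The member that fell was Dhcr7, the last enzyme of the pathway (-0.33). Hmgcs1 and Dhcr7 were added after their values were seen. The count of higher genes was 4 to 5 without R6/2 x DREAM+/- replicate 2 or R6/2 replicate 1, 2 or 4, and the Dhcr7 call was lost without R6/2 x DREAM+/- replicate 1 or 2 or R6/2 replicate 3 or 4. The Hmgcs1 call was lost without R6/2 x DREAM+/- replicate 2 or R6/2 replicate 2 or 4 (adjusted p up to 0.0773). With the mean of cortical markers as a covariate 1 gene was higher.

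The remaining pathway lists are set beside the same 14%. Per3, a core clock gene, fell by 0.69 on its brightest probe set (SE 0.10, adjusted p = 0.000397), with -0.48 without R6/2 (adjusted p = 0.00999), and read -0.22 (adjusted p = 0.0526) with the mean of its 6 probe sets. Of the other 18 clock genes 2 rose, so that 15.8% of the list passed; the higher count ran from 0 to 3 on leaving out 1 array and moved by over 1.5 times without any array other than R6/2 x DREAM+/- replicate 3. Of 18 p53 and apoptosis genes 3 rose and 1 fell (22.2%), with 1 to 3 higher on leaving out 1 array, moving by over 1.5 times without R6/2 replicate 1 or 3. The member that fell was Casp9, an initiator caspase, which read 8.49, 8.30, 8.32 and 8.65 in R6/2 and 7.91, 7.76, 7.51 and 7.81 in R6/2 x DREAM+/- (-0.69, SE 0.12, adjusted p = 0.00188). Of 12 huntingtin partners, Hap1, which binds huntingtin in transport, fell by 0.43 (adjusted p = 0.00136), and mouse Htt (-0.03) did not pass. Of 30 oxidative phosphorylation genes 2 fell and 0 rose, of 18 cytosolic heat shock genes 2 rose (0 to 2 on leaving out 1 array, moved by over 1.5 times without any array other than R6/2 x DREAM+/- replicate 2), of 18 presynaptic genes 1 rose and 1 fell, and of 19 chromatin and developmental factors 0 passed. Without R6/2 x DREAM+/- replicate 3, 4 oxidative phosphorylation genes, 5 presynaptic genes and 3 chromatin and developmental factors fell. Without R6/2 x DREAM+/- replicate 4, 1 chromatin and developmental factor rose. The reference gene Actb (0.10) did not pass.

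Of 14 microglia and complement genes 4 were higher, 0 lower and 10 did not pass, beside 5.33% higher over all genes, and the median was 0.18. C1qb, a chain of the first complement component, read 9.67, 9.90, 9.87 and 9.96 in R6/2 and 10.33, 10.34, 10.48 and 10.46 in R6/2 x DREAM+/-. No array overlapped, and the difference was 0.55 (SE 0.06, adjusted p = 5.09e-05), with 0.41 without R6/2 (adjusted p = 0.00138). C1qc rose by 0.39 and the microglial receptor Trem2 by 0.30, and both also passed without R6/2 (0.26 and 0.24). With cortical markers as a covariate, described below, C1qc read 0.20 (adjusted p = 0.109) and Trem2 0.19 (adjusted p = 0.174), and Trem2 read 0.0975 (adjusted p = 0.215) with the mean of its 2 probe sets. The mean over the list was 8.70 to 8.88 in R6/2 and 8.95 to 8.99 in R6/2 x DREAM+/- arrays. Lyz2 rose by 0.27, a call lost on leaving out any 1 array other than R6/2 x DREAM+/- replicate 1 and R6/2 replicate 3 (adjusted p up to 0.0888). Of 15 interferon and MHC class I genes 2 were higher (13.3%, beside 5.33% over all genes) and 0 lower. Leaving out 1 array gave 1 to 3 higher and 0 to 1 lower. H2-K1 read 8.02, 8.35, 9.18 and 8.80 in R6/2 and 9.70, 9.09, 9.30 and 9.48 in R6/2 x DREAM+/- (0.80, SE 0.19, adjusted p = 0.0128), with overlap, and 0.99 without R6/2. H2-D1 was higher by 0.75 on its brightest probe set and lower by 1.34 on another, so its direction depends on the probe set. The H2-D1 call was also lost on leaving out any 1 of 5 arrays, R6/2 x DREAM+/- replicates 1, 2 and 4 and R6/2 replicates 1 and 2 (adjusted p up to 0.113). These class I genes are near-identical in sequence and differ between mouse strains.

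Markers of cortical projection neurons, cells that lie next to the striatum, moved with the DREAM genotype in R6/2. Of 13, 7 were higher and 0 lower, beside 5.33% higher over all genes, with a median of 0.33. Slc17a7, a vesicular glutamate transporter, read 6.77, 7.59, 7.48 and 7.42 in R6/2 and 7.95, 8.28, 8.55 and 8.57 in R6/2 x DREAM+/-. The groups were separate, and the difference was 1.02 (SE 0.16, adjusted p = 0.000789). Neurod6 was higher by 0.86, Nptx1 by 0.70 and Fezf2 by 0.33. The mean over the list was 8.02 to 8.48 in R6/2, 8.55 to 8.87 in R6/2 x DREAM+/-, 8.63 to 8.85 in wild type and 8.70 to 8.93 in DREAM+/-, so that R6/2 was the lowest group. Without R6/2, 0 of the 13 passed. R6/2 replicate 1 was the lowest array for Slc17a7 and Neurod6 (6.28, against 7.16 to 7.52), and without it 4 of the 13 were higher.

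Results above were also read with the mean of the cortical list as a covariate. Then 1122 genes passed, 268 of them higher instead of 693. Of 72 genes named here that passed and are not on the cortical list, 37 lost the call, 14 with a difference smaller by over 1.5 times and 23 without such a drop. Cck (0.71, adjusted p = 0.00688), a peptide of interneurons and cortical cells, then read 0.13 (adjusted p = 0.491), Gfra2 0.15 (adjusted p = 0.445) and Cap1 -1.30 (adjusted p = 0.150). Npas4 (-0.59, adjusted p = 0.107), Pdyn (-0.39, adjusted p = 0.111), Camk4 (0.58, adjusted p = 0.0522) and Fdft1 (0.24, adjusted p = 0.0817) lost the call with differences within 1.5 times of those above. Nr4a2 (0.73, adjusted p = 0.0106), C1qb (0.38, adjusted p = 0.0126), Kcne2 (2.39, adjusted p = 0.0396) and Kcnip3 (-1.60, adjusted p = 1.01e-05) still passed. Slc17a7 (0.41, adjusted p = 0.0461) is itself part of the covariate, so its value there is not a separate check. The amount of cortical tissue in each sample was not tested.

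Marker lists of other cells held single calls or a few. Gfap, the intermediate filament of reactive astrocytes, read 7.84, 8.13, 7.80 and 7.96 in R6/2 and 8.25, 8.62, 8.51 and 8.45 in R6/2 x DREAM+/- (0.53, SE 0.10, adjusted p = 0.00334), with no overlap between the groups. Of 16 astrocyte markers 3 were higher and 1 lower (25% passed, beside 14% over all genes, median -0.02). Leaving out 1 array gave 1 to 3 higher and 0 to 2 lower astrocyte markers. Of 13 oligodendrocyte markers 1 was higher (7.69%), of 7 precursor markers 0 passed, and of 13 vascular markers 1 was higher (7.69%). Of 13 interneuron markers 2 rose and 1 fell (23.1% passed, beside 14% over all genes). On leaving out 1 array 1 to 2 rose and 0 to 5 fell, the lower count moving by over 1.5 times without any array other than R6/2 x DREAM+/- replicate 2. Choroid plexus and ependyma markers had 1 member higher of 10, Kcne2, and a median of 0.45. Their mean, which includes Kcne2, was 7.02 to 8.27 in R6/2 and 8.07 to 8.95 in R6/2 x DREAM+/- arrays. Their part in the change of Kcne2 was not tested. Of 8 markers of neighbouring forebrain, Prkcd, a kinase abundant in thalamus, fell by 0.46 (adjusted p = 0.00994) and 7 did not pass. The 1 blood marker tested did not pass.

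**Figure D5:**
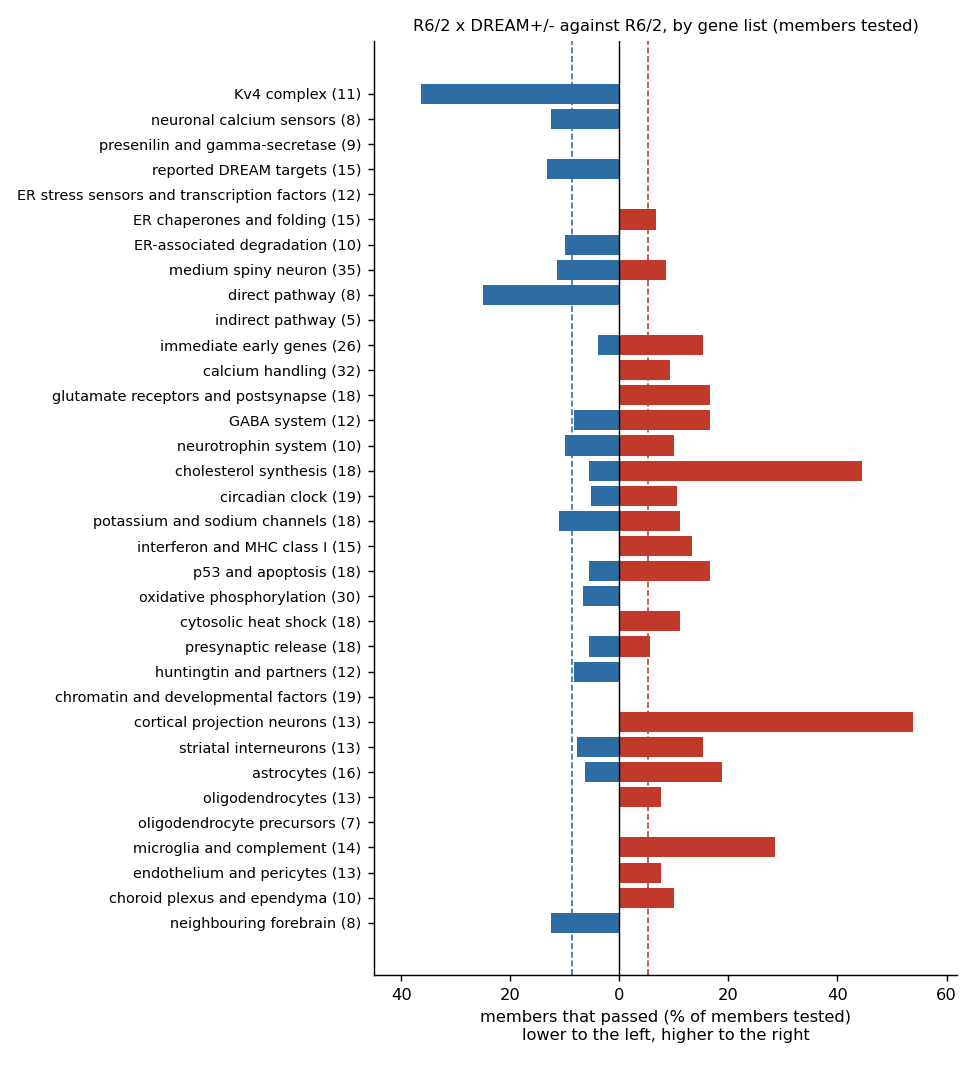
Share of each list's tested members (%) that passed lower (blue, left) or higher (red, right) in R6/2 x DREAM+/- against R6/2, with the number tested in parentheses; lists with fewer than 5 tested members are left out. Dashed lines mark the shares over all genes, 8.65% lower and 5.33% higher; cortical projection neurons (7 of 13) and cholesterol synthesis (8 of 18) have the most members higher, and the Kv4 complex (4 of 11, Kcnip3 among them) the most lower.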

How the data were processed

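Log2 levels of 45101 probe sets on 16 arrays were used as the authors deposited them. The submitters' processing notes name RMA and affy, without versions or order. RMA as usually run makes the distributions of arrays alike, so a shift common to most genes may not be seen. The deposited levels were not exactly alike. Shifting arrays to a common median gave 1506 genes that passed, 659 higher and 847 lower, and quantile normalization gave 1890. The number of arrays limits precision: the median gene SD was 0.0816 in R6/2 and 0.106 in R6/2 x DREAM+/-.

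Groups came from sample titles. Of the probe sets, 34945 had 1 symbol in GEO's platform annotation, 932 several, 9160 none there and 64 were controls; 99.4% of the first matched RefSeq's gene table by Entrez identifier. The brightest probe set stood for each gene, and genes dimmer than the 40th percentile of all probe-set averages (5.944) were dropped. limma 3.58.1 in R 4.3.3 fitted 4 genotype means to all 16 arrays, with Benjamini-Hochberg adjustment over 13011 genes, after being tested on simulated data. Kcnip3 probe sets were tested among all 34945. Covariates, normalizations, filters and left-out arrays were tried as alternatives.

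The genes compared and the 36 lists were chosen with earlier results of these data known. The rule for naming genes took Kcnip3, the 15 highest and 15 lowest that passed without overlap, up to 4 members of each list by unadjusted p, genes that passed with opposite signs in both DREAM comparisons, and a set list of striatal, activity, stress and reference genes; the text names only some. Counts use all genes tested.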

Additional observations from a re-analysis of the deposited data

Results flagged for a closer look

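Among 198 groups of 4 arrays (99 named genes in R6/2 and in R6/2 x DREAM+/-), 12 had 1 array far from the other 3 by Dixon's gap test at its 95% critical value. Chance gives this in about 1 in 20 groups, so the number is close to what chance gives. Most of these arrays were in R6/2: Xist read 6.49 in replicate 1 against 11.58 to 11.95 in the others, Ryr2 8.81 and Tm6sf1 7.51 in replicate 1, Bcl11b 11.52 in replicate 2, and Srrm2 9.09 in replicate 4, each the lowest of its group. Hap1 was highest in R6/2 replicate 2 at 9.50. In R6/2 replicate 3, Camk4 was lowest at 10.41 and Gatm highest at 10.15.

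In R6/2 x DREAM+/-, replicate 1 was lowest for Cyp51 (8.32, against 8.59 to 8.62) and for Drd1 (10.83, against 11.20 to 11.24). Kcnip4 was lowest in replicate 4 at 9.28, and Ngfr was highest in replicate 3 at 6.96.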

How the results depend on the processing

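Over 20 alternatives, 30 of 76 named genes that passed kept their sign and their side of the threshold in each, and 46 lost the call in at least 1. Kcnip3 lay between -2.07 and -1.51. With only the 8 arrays, 1067 genes passed, 433 higher and 634 lower. Array weights gave 1714 lower, 899 without R6/2 and 583 in both comparisons. A cortical covariate gave 1122, 268 of them higher. Without 1 array the count ran from 1067 to 2708, with 429 to 717 higher and 630 to 1991 lower; without both arrays that stood apart, 1761 were lower. The cause of these moves was not tested, beyond the fewer samples fitted. The interaction called 3 genes with a 60th percentile filter, 1 with quantile normalization, 3 with arrays shifted to a common median, and 0 to 2 without 1 array. With the mean of all probe sets of a gene, Foxp2 read 0.025 and Ddit3 0.18 (adjusted p = 0.0165), each of opposite sign to its brightest probe set. Same-numbered R6/2 x DREAM+/- and R6/2 arrays deviated together at r = -0.114 to 0.200, so the numbers were not taken as pairs; with the replicate number as a block, 1709 genes passed, 1589 of them among the 1819. Signal near background limits the dimmer Kcnip3 probe set.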
